A study of Homo sapiens with 23 samples.

Results

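Mitochondrial ribosomal proteins were followed through the differentiation of human embryonic stem cells into cardiomyocytes. The genes were taken by name: every protein-coding gene of the deposited count table whose GENCODE symbol begins with MRPL or MRPS and a number. This gave 78 of 57477 genes, of which 51 encode proteins of the large ribosomal subunit and 26 proteins of the small subunit. The remaining gene, MRPS36, kept its ribosomal name but encodes a subunit of the 2-oxoglutarate dehydrogenase complex of the citric acid cycle. By ancestry, 48 of the proteins have a bacterial homologue and 29 are specific to mitochondria. All 78 genes passed the filter on low counts.

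The mitochondrial ribosome is assembled in the matrix from these imported proteins and from ribosomal RNA transcribed from mitochondrial DNA. It translates the messenger RNAs of the mitochondrial genome, which encode core subunits of the respiratory chain and of ATP synthase. Pluripotent stem cells draw much of their ATP from glycolysis, whereas cardiomyocytes depend on oxidative phosphorylation, and inherited defects of several of these proteins (MRPL3, MRPL44 and MRPS22 among them) cause cardiomyopathy.

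The cells were H1-hESC, an established human embryonic stem cell line, with the genotype given as WT in all 23 libraries. Total RNA depleted of ribosomal RNA was sequenced at 8 times of a directed differentiation, with 3 libraries a day and 2 at day 10. The cell type labels were Stem Cell for day 0, Mesendoderm for day 1, Cardiac mesoderm for day 3, Cardiac progenitors for both day 5 and day 7, and Cardiomyocyte from day 10 on, at days 10, 14 and 28. No untreated culture at the later days was analysed here, and nothing in the labels says that libraries of a day came from separate cultures, so the p-values measure the spread between these libraries only. Counts assigned to genes lay between 4330334 and 22089595 a library. Summed markers of stem cells went from 3884 CPM (read counts scaled to a common library size) at day 0 to 2.06 at day 28, and summed cardiomyocyte markers from 48.4 to 36324. Markers of other cell types were read as well, with single genes leading some sums. Endoderm and liver markers summed to 469 to 2977 CPM at day 14, where AFP had a mean of 1743 CPM. ALB and APOA1 were also higher at day 14 than at day 7, but FOXA2, SOX17 and TTR were lower. At day 28 stromal markers summed to 2788 to 3236 CPM, with COL3A1 at a mean of 2217, and smooth muscle markers to 2244 to 2774 CPM. The presence of other cell types, and their part in the values below, was not tested. These are bulk samples, in which fewer cells of a type and less RNA per cell cannot be told apart.

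Taken as a sum, the mitochondrial ribosomal protein messages were highest at day 1, lower at day 3 in every library, and stayed near the lower level to day 28. The sum was 5129.7 ± 49.7 CPM at day 0 (SD, n = 3), with the 3 libraries at 5081, 5179.9 and 5129. At day 1 it was 6008 ± 617 CPM, with 2 libraries at 6375 and 6354 and replicate 2 at 5295, still above every library of day 0. At day 3 the libraries stood at 3367, 3666 and 3669.5 CPM, below all libraries of days 0 and 1. The day means that followed were 3742 ± 492 (day 5), 3203 ± 151 (day 7), 3687 ± 281 (day 10, n = 2), 3322 ± 59.2 (day 14) and 3242 ± 177 CPM (day 28). From day 3 on, neighbouring days overlapped except from day 7 to day 10 and from day 10 to day 14, and day 5 was the most scattered, with libraries between 3261 and 4245. Day 28 was 36.8% below day 0. The share of all counts that fell on these 78 genes went from 0.498 to 0.505% at day 0 to 0.281 to 0.298% at day 28.

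**Figure D1:**
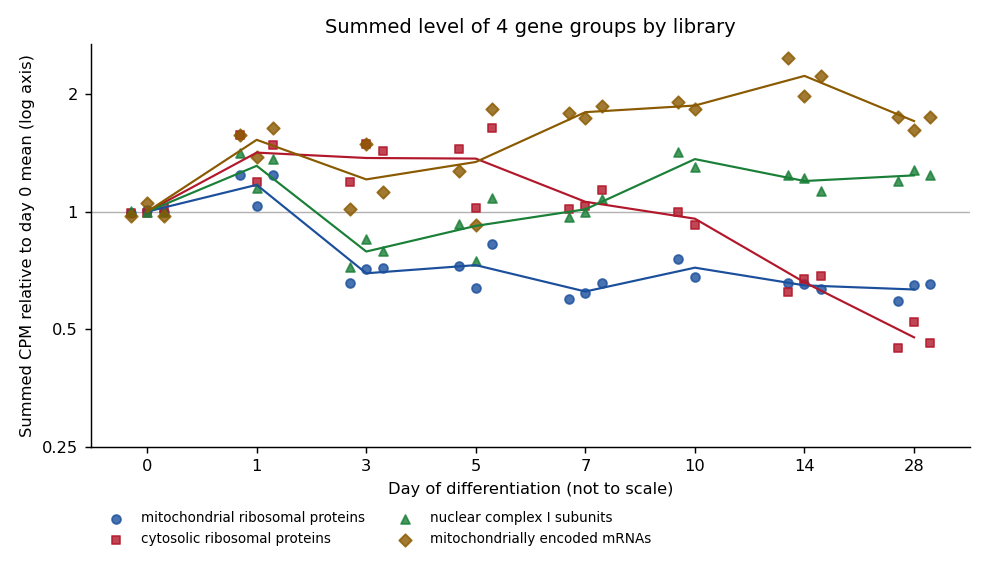
Summed CPM of 4 gene groups in each library, divided by the group's day 0 mean (log axis), against day of differentiation; points are libraries and lines join the day means. The mitochondrial ribosomal proteins end at 0.632 of day 0, the cytosolic ribosomal proteins at 0.477, the nuclear complex I subunits at 1.24 and the mitochondrially encoded messenger RNAs at 1.71.

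The templates of this ribosome and the cytosolic ribosome each had a course of sums of its own. Complex I stayed near the mitochondrial ribosomal proteins up to day 3 and parted from them later. The 13 mitochondrially encoded messenger RNAs, which this ribosome translates, summed to 12477 ± 584 CPM at day 0 and 21281 ± 909 at day 28. Their ratio to the ribosomal protein messages went from 2.43 ± 0.093 at day 0 to 4.22 ± 0.735 at day 3, 8.36 ± 0.882 at day 14 and 6.58 ± 0.55 at day 28. Every library of days 7 to 28 lay above every library of day 0 in this ratio. MT-CO1 and MT-CO3 made up most of the sum of the 13 at days 0 and 28. From day 0 to day 28 MT-CO1 went from 4755 ± 248 to 10570 ± 451 CPM and MT-CO3 from 5199 ± 249 to 5263 ± 884. Nuclear subunits of respiratory complex I were taken by their NDUF symbols alone, and membership of the complex was not checked gene by gene. Of 38 tested genes, 21 were lower (55.3%, against 19.0% of all genes) and 2 higher (5.3%, against 18.2%) at day 3 than at day 1. NDUFA4L2 was 1 of the 2. At day 28, 15 were higher than at day 0 (39.5%, against 32.1% of all genes) and 1 was lower (2.6%, against 28.4%). The share of rises was near the background, and the share of falls was below it. The sum was 2569 ± 12.8 CPM at day 0, 2031 ± 166 at day 3 and 3181 ± 110 at day 28. Their ratio to the mitochondrial ribosomal proteins was 0.501 ± 0.007 at day 0, 0.56 ± 0.009 at day 1 and 0.569 ± 0.025 at day 3. It stood at 0.813 ± 0.008 at day 7 and 0.982 ± 0.033 at day 28. Cytosolic ribosomal proteins held their sum from day 1 (102212 ± 14239 CPM) to day 3 (99019 ± 11479), where the mitochondrial sum was lower. The cytosolic sum stood at 34402 ± 2784 CPM at day 28. Of 86 tested genes, 82 were then lower than at day 0 (95.3%, against 28.4% of all genes) and 1 was higher (1.2%, against 32.1%). The ratio of the cytosolic to the mitochondrial set was 14.1 ± 0.27 at day 0, 27.7 ± 1.96 at day 3 and 10.6 ± 0.693 at day 28. Within the mitochondrial set, large-subunit over small-subunit messages stayed between day means of 1.72 (day 3) and 1.93 (day 0).

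Each gene was tested with edgeR's quasi-likelihood F-test in one fit of all 23 libraries, with p-values adjusted by Benjamini-Hochberg over 22245 genes, and called at an adjusted p below 0.05. Changes are given as log2 of the later over the earlier day. Of the 78 genes, 72 differed between some of the 8 days, against 88.4% of all genes tested. The mean was highest at day 1 in 44 genes and at day 0 in 18. It was lowest at day 7 in 20 genes, at day 14 in 18 and at day 28 in 17.

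**Figure D2:**
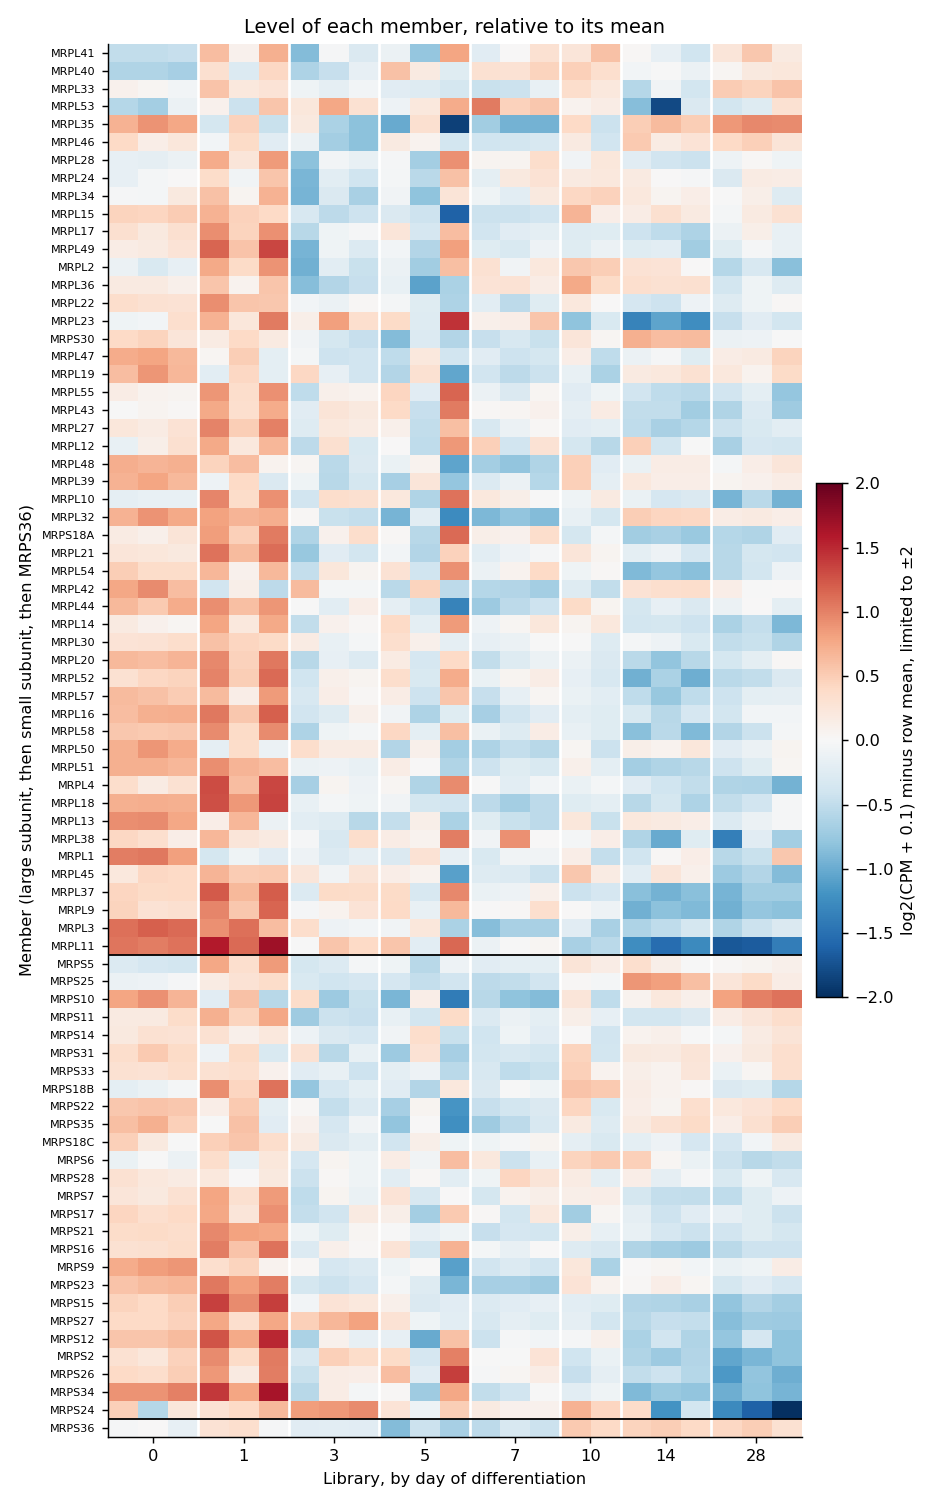
Heat map of log2(CPM + 0.1) minus the gene's mean over all libraries, limited to ±2 (red higher, blue lower), for 78 genes in rows and 23 libraries in columns by day. Rows run from the highest to the lowest log2 change of day 28 against day 0 within the large subunit, then the small subunit, with MRPS36 last; most rows are red at days 0 and 1, and the split within days 1 and 5 is visible as columns that differ from their neighbours.

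Among the consecutive steps, the one from mesendoderm to cardiac mesoderm had the most genes called. Between day 1 and day 3, 46 of the 78 genes fell (59.0%, against 19.0% of all genes tested called lower). None rose by edgeR (0 of 78, also 0 at an unadjusted p below 0.05 and 0 by DESeq2; background called higher, 18.2%). The median log2 change was -0.73, against 0.04 over all genes tested. In 55 genes (70.5%) all day 3 libraries lay below all day 1 libraries, compared with 23.9% of all genes, and in 1 gene (1.28%) above, compared with 21.7%. Both subunits took part, with 32 of 51 large-subunit genes (median -0.79) and 14 of 26 small-subunit genes (median -0.61) called lower. The same held for 30 of 48 proteins with a bacterial homologue and 16 of 29 mitochondrion-specific proteins.

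Among the large-subunit genes, MRPL49 (ENSG00000149792; chr11:65122183-65127371, plus strand, GRCh38) encodes a mitochondrion-specific protein. It stood at 135, 89.8 and 153 CPM at day 1 and at 31.8, 56.7 and 49.8 CPM at day 3. The 2 days did not overlap, and the log2 change was -1.45 (SE 0.29, adjusted p = 0.000306). MRPL21 (chr11:68891276-68903835, minus strand), with a bacterial homologue, went from 116, 84.2 and 118 CPM to 32.1, 46.6 and 42.3. Its log2 change was -1.40 (SE 0.24, adjusted p = 4.88e-05), and again no day 3 library reached the lowest of day 1.

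Among the small-subunit genes, MRPS34 (chr16:1771890-1773150, minus strand) encodes a mitochondrion-specific protein needed for a stable small subunit. Its libraries read 240, 156 and 281 CPM at day 1 and 61.5, 99.5 and 87.8 CPM at day 3. All 3 values of day 3 were also under its day 0 range of 168 to 180 CPM, and the fall from day 1 was -1.45 (SE 0.29, adjusted p = 0.000312). MRPS12 (chr19:38930944-38933168, plus strand) is the homologue of the bacterial protein at the decoding centre. It went from 71.6, 51.0 and 85.9 CPM to 19.2, 31.9 and 26.7 CPM, without overlap (log2 change -1.42, SE 0.29, adjusted p = 0.000446). MRPS23 (chr17:57834781-57850056, minus strand), a mitochondrion-specific protein, was the tightest of these, at 133, 113 and 131 CPM at day 1 and 50.1, 47.3 and 50.8 CPM at day 3. Its log2 change was -1.35 (SE 0.21, adjusted p = 1.55e-05). The falls of these 5 genes passed under every alternative tried. MRPS27, a pentatricopeptide repeat protein of the small subunit and the most abundant of the 78 in CPM, was an exception: its mean was 235 ± 38.8 CPM on day 1 and 238 ± 26.5 on day 3, a log2 change of 0.01 (adjusted p = 0.969).

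The count of genes called lower was 30 without day 1 replicate 1, 29 without day 1 replicate 3, 30 in a fit restricted to these 2 days, and 30 with library totals as the scale. That last scale moved the median of all genes by 0.23 and left the median of these 78 at -0.49. Without day 1 replicate 2, 1 gene was called higher.

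**Figure D3:**
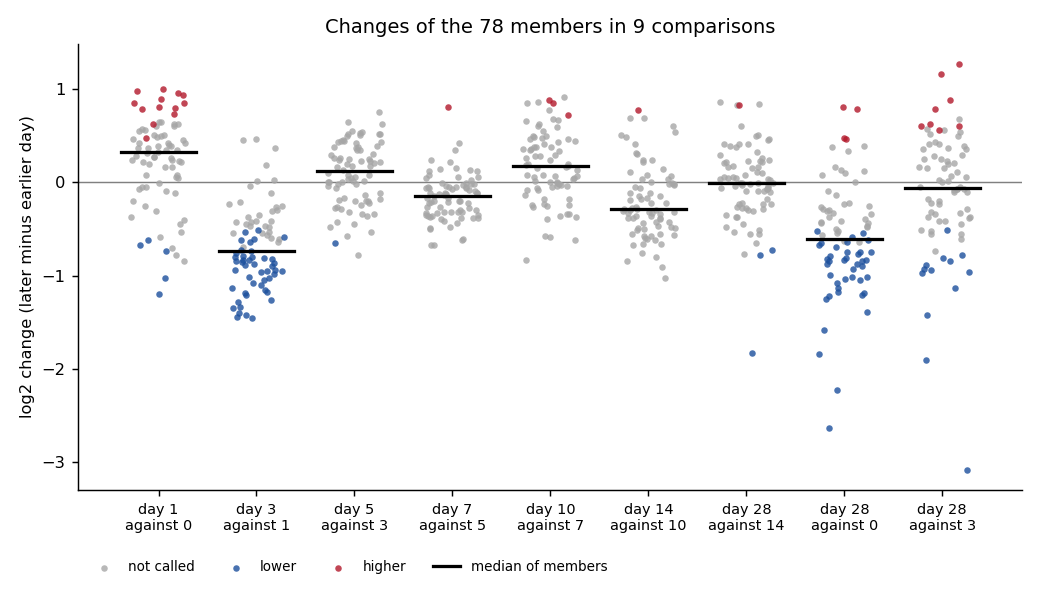
Log2 change of each of the 78 genes (points) in 9 comparisons of a later with an earlier day, coloured by the edgeR call, with the median as a black line. The comparison of day 3 against day 1 has 46 genes called lower and none called higher; comparisons that share a day share its libraries.

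The step before it, from stem cell to mesendoderm, split the set. At day 1, 13 genes rose (16.7%, against 15.3% of all genes called higher) and 5 fell (6.41%, against 16.5%), so the share of risers was near the background. The median log2 change was 0.32, against 0.05 over all genes. Day 1 libraries enter this comparison and the one above, so the 2 sets of changes are not independent. The rises were spread over both subunits, with 9 of 51 large-subunit and 4 of 26 small-subunit genes. The 5 genes called lower encode large-subunit proteins, but 8 small-subunit genes also had a change below 0, down to -0.78, and no difference between the subunits was tested. The counts moved with single libraries. Leaving out replicate 2 of day 1 gave 29 rises and 9 falls, its replicate 1 gave 6 and 2, and its replicate 3 gave 4 and 2. Leaving out a day 0 library gave 7 and 3 (replicate 1), 8 and 2 (replicate 2) or 10 and 3 (replicate 3). All libraries of day 1 lay above day 0 in 33 genes (42.3%, against 28.9% of all genes) and below in 12 (15.4%, against 27.1%).

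MRPS5 (chr2:95085369-95122006, minus strand), a core small-subunit protein with a bacterial homologue, rose most. It read 52.8, 50.9 and 49.7 CPM at day 0 and 110, 81.2 and 116 CPM at day 1, a log2 change of 1.00 (SE 0.20, adjusted p = 0.000656). MRPS18B, one of 3 paralogues of the bacterial small-subunit protein S18, read 62.5, 65.3 and 69.6 CPM at day 0 and 136, 95.8 and 151 at day 1 (0.95, SE 0.23, adjusted p = 0.00308). In both genes replicate 2 was the lowest library of day 1 and still exceeded all of day 0. MRPL41, MRPL10 and MRPL2 rose by log2 changes of 0.98, 0.94 and 0.89 (adjusted p = 0.0141, 0.0185 and 0.0132). MRPL10 anchors the stalk that binds translation factors. Without day 1 replicate 3 the adjusted p of these 3 became 0.0570, 0.0594 and 0.0529, and that of MRPL10 was 0.0558 without day 0 replicate 1 and 0.0616 without day 1 replicate 1.

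MRPL1 (ENSG00000169288; chr4:77862830-77952785, plus strand), the homologue of the bacterial stalk protein beside the exit site for transfer RNA, fell most and stayed low. Its libraries read 44.7, 45.7 and 39.1 CPM at day 0 and 17.2, 20.8 and 18.8 CPM at day 1, with no overlap (log2 change -1.19, SE 0.26, adjusted p = 0.0013). Its means from day 1 to day 28 lay between 18.9 ± 1.82 and 21.5 ± 4.77 CPM, and no later step was called, although 1 library of day 28 stood at 31.9 CPM. MRPL42, a mitochondrion-specific large-subunit protein, went from 176, 199 and 158 CPM to 79.1, 112 and 71.6 CPM (log2 change -1.02, SE 0.26, adjusted p = 0.00452). MRPL50, MRPL39 and MRPL13 fell by 0.74, 0.67 and 0.62 on the log2 scale (adjusted p = 0.0144, 0.0437 and 0.0481). The falls of these 3 did not pass without day 1 replicate 1 (adjusted p = 0.0903, 0.156 and 0.165) or replicate 3 (0.0772, 0.198 and 0.229), nor without day 0 replicate 2 (0.0649, 0.126 and 0.131). Those of MRPL39 and MRPL13 also missed without day 0 replicate 1 (0.0801 and 0.102) and replicate 3 (0.0838 and 0.0752).

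**Figure D4:**
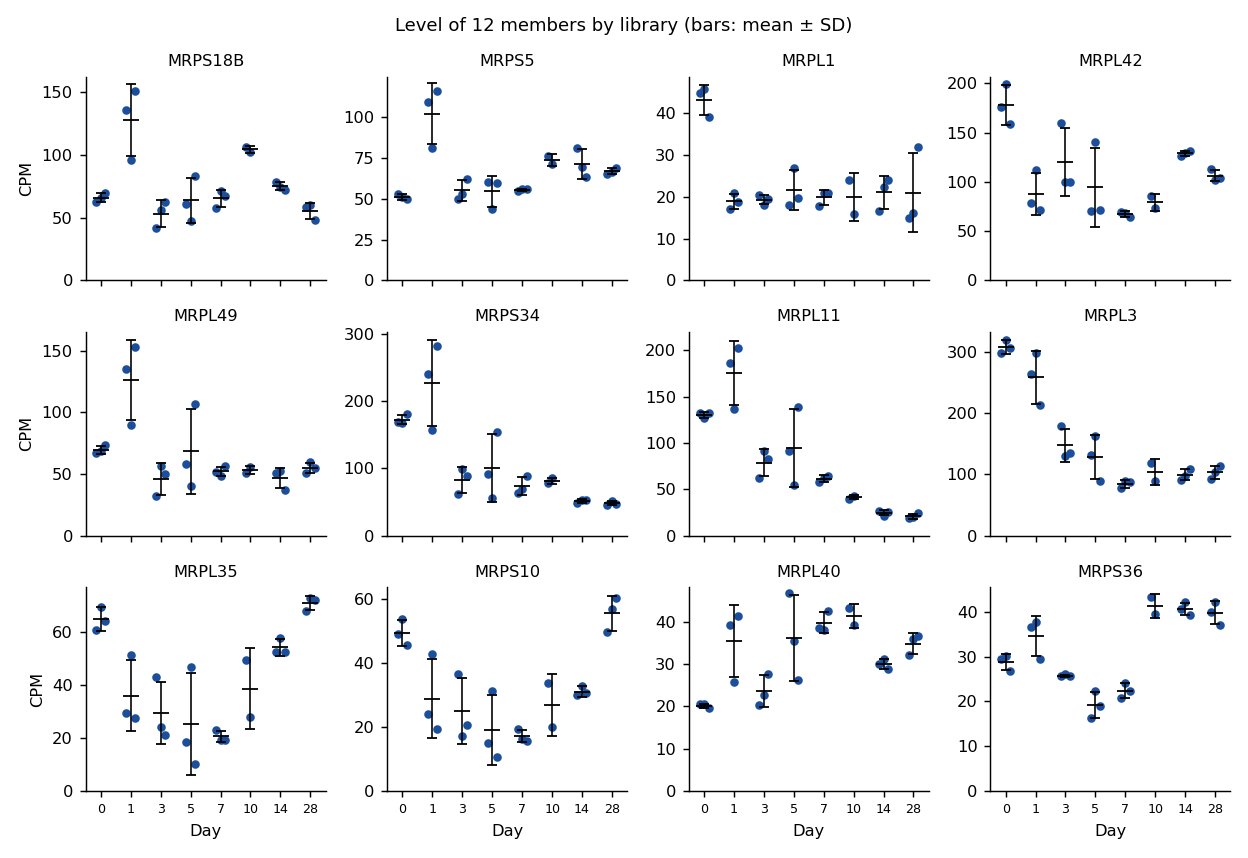
CPM of 12 genes in each library (blue points) with mean ± SD by day (black), each panel on its own axis from 0. MRPS18B and MRPS5 peak at day 1, MRPL1 drops at day 1 to a mean of 18.9 CPM, MRPL49, MRPS34, MRPL11 and MRPL3 have lower means from day 3 on than at day 1, and MRPL35 and MRPS10 have lower means at days 5 and 7 than at days 0 and 28.

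Base composition moved with these day 1 changes. Over the 78 genes, the log2 change of day 1 against day 0 and the GC content of the canonical transcript had a Spearman rho of 0.697, given as a description, since the points share libraries (all genes tested, 0.427, n = 21987). The 13 genes that rose had a median GC of 53.1% (43.7 to 66.7%) and the 5 that fell a median of 38.3% (35.01 to 40.9%). Cut into 3 equal groups by GC, the genes had median changes of -0.31, 0.28 and 0.61 from the lowest to the highest GC. Libraries of 1 day also differed along GC: the deviation from the day mean had a rho with GC of -0.766 in day 1 replicate 2 and 0.734 in replicate 3, and of -0.858 in day 5 replicate 2 and 0.797 in replicate 3. With trends of length and GC removed from the counts, the median change at day 1 was 0.07 (all genes 0.01), and 16 genes were called higher and 6 lower, of which 7 and 1 were among those above. MRPS5, MRPS18B and MRPL1 passed in that fit, and the changes of MRPL42, MRPL50, MRPL39 and MRPL13 did not (-0.01, -0.15, -0.30 and -0.17; adjusted p = 0.987, 0.384, 0.0520 and 0.330). For day 3 against day 1 the same fit gave 65 genes lower and 0 higher, 45 of them among the 46, and a median of -0.70. The share of all genes called with these trends removed is not given here or below, so such counts have no background beside them.

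**Figure D5:**
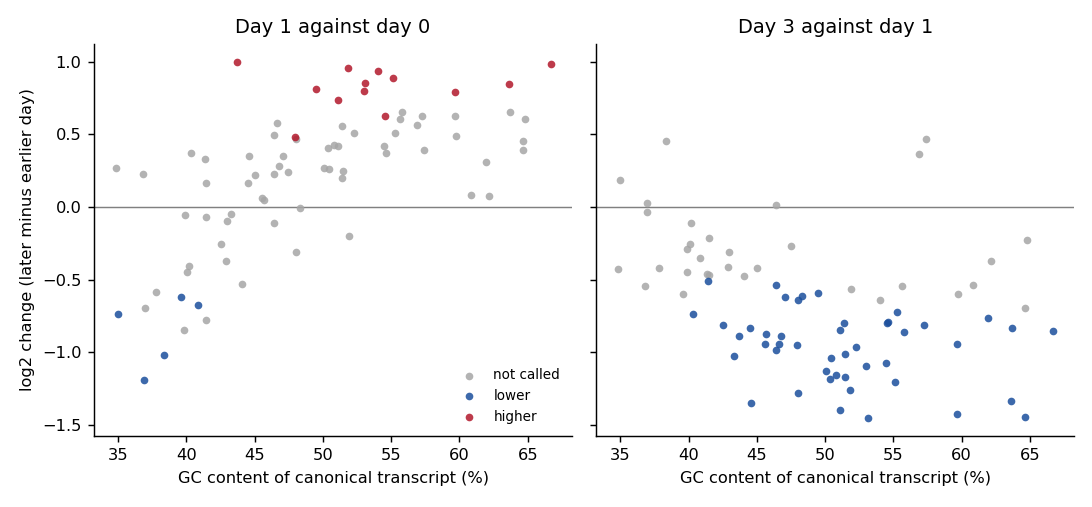
GC content of each gene's canonical transcript against its log2 change for day 1 against day 0 (left) and day 3 against day 1 (right), coloured by the edgeR call. On the left the genes called lower lie at 35.01 to 40.9% GC and those called higher at 43.7 to 66.7%; on the right genes called lower lie between 40.3 and 66.7%.

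Over the whole course, from stem cells to day 28 cardiomyocytes, 40 genes fell (51.3%, against 28.4% of all genes) and 4 rose (5.13%, against 32.1%). The median log2 change was -0.60, against 0.09 over all genes tested. Day 28 libraries all lay below day 0 libraries in 60 genes (76.9%, against 36.4% of all genes) and all above in 7 (8.97%, against 39.6%). The falls took in 27 of 51 large-subunit genes (median -0.63) and 13 of 26 small-subunit genes (median -0.50). Of the 46 genes lower at day 3 than at day 1, 27 were also lower at day 28 than at day 0, which is 58.7% of the first list and 67.5% of the second; over all genes the shares were 59.9% and 40.1%. These 2 comparisons have no library in common.

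MRPL11 (ENSG00000174547; chr11:66435075-66466738, minus strand) encodes the protein at the base of the factor-binding stalk and fell most. Its libraries read 132, 127 and 133 CPM at day 0 and 19.3, 19.6 and 24 CPM on day 28. The log2 change was -2.63, with an SE of 0.27 and an adjusted p of 6.95e-09. The gene declined through most of the course, with means of 175 ± 34.5 CPM (day 1), 78.8 ± 14.9 (day 3), 61.6 ± 3.36 (day 7), 41.5 ± 2.26 (day 10) and 24.5 ± 2.57 (day 14), although day 5 was scattered (94.7 ± 42.3) and after day 3 no single step passed. MRPS34 ended at 45.6, 51.6 and 47.4 CPM (log2 change -1.84, SE 0.29, adjusted p = 5.9e-06). MRPL3 (chr3:131462212-131502983, minus strand), a core large-subunit protein, read 298, 319 and 305 CPM at day 0, the highest day mean of any of the 78 genes. It read 91.9, 103 and 113 CPM at day 28 (log2 change -1.58, SE 0.23, adjusted p = 2.16e-06). MRPS26 (chr20:3046052-3048250, plus strand), a mitochondrion-specific protein, went from 72.8, 70.5 and 77.9 CPM to 24.8, 31.8 and 27.9 (log2 change -1.39, SE 0.29, adjusted p = 0.000216). In none of these 4 genes did a day 28 library come near the lowest of day 0. MRPS24 was also called lower (log2 change -2.22, adjusted p = 0.000568), but at means of 0.739 ± 0.286 and 0.149 ± 0.075 CPM, from few reads.

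The 4 genes that rose did so by less. MRPL40 (chr22:19432545-19436075, plus strand), a mitochondrion-specific large-subunit protein, read 20.5, 20.4 and 19.6 CPM on day 0 and 32.1, 35.9 and 36.7 CPM on day 28 (log2 change 0.79, SE 0.22, adjusted p = 0.00335). MRPL41 read 28.0, 28.1 and 28.6 CPM and then 46.5, 57.1 and 44.8 CPM (0.81, SE 0.29, adjusted p = 0.0199; 0.0520 without day 0 replicate 1). Both genes had no overlap between the days, and both were already raised at day 1. MRPL33 (0.48, adjusted p = 0.0336) and MRPS36 (0.47, adjusted p = 0.0331) passed narrowly. With trends of length and GC removed they stood at 0.20 and -0.02, with library totals as the scale at 0.35 and 0.35, without day 0 replicate 1 at 0.51 and 0.48 (adjusted p = 0.0583 and 0.0638) and without day 0 replicate 3 at the same values (0.0576 and 0.0612). The fifth in rank, MRPS5, had a log2 change of 0.39 (adjusted p = 0.0944). The number called higher was 1 without day 0 replicate 1 and 2 without day 0 replicate 3, whereas the number called lower stayed between 30 and 34 with any 1 library left out.

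Against cardiac mesoderm rather than stem cells, calls at day 28 went both ways. Day 28 was higher than day 3 in 8 genes (10.3%, against 27.3% of all genes) and lower in 13 (16.7%, against 26.9%), with a median of -0.06, so both shares lay below those of genes at large. All day 28 libraries lay above day 3 in 20 genes (25.6%, against 31.6% of all genes) and below in 19 (24.4%, against 30.2%). This comparison shares its day 28 libraries with the one before. The changes had a rho with GC of -0.458 (all genes, -0.259). Median GC was 44.3% in the 8 genes called higher and 54.0% in the 13 called lower. From the lowest to the highest GC group, 4, 4 and 0 genes were called higher and 1, 4 and 8 lower. The balance of calls depends on the processing here: with library totals 4 genes were higher and 27 lower (median -0.31, all-gene median moved by -0.25), and with the length and GC trends removed 18 were higher and 17 lower.

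MRPL35 (chr2:86199355-86213790, plus strand), with a bacterial homologue in the large subunit, had lower means at days 3 to 7 than at either end of the course. It read 60.6, 69.4 and 63.9 CPM on day 0, then 42.7, 24 and 21 on day 3, 23, 19.3 and 19.2 on day 7 and 67.6, 72.6 and 71.9 on day 28. The rise from day 3 was 1.27 (SE 0.36, adjusted p = 0.00477), and days 0 and 28 overlapped. MRPS10 of the small subunit had the same form, with 49, 53.7 and 45.6 CPM on day 0, then 36.5, 17.1 and 20.7 on day 3, 19.2, 16.3 and 15.6 on day 7 and 49.5, 56.9 and 60.1 on day 28 (1.16 against day 3, SE 0.33, adjusted p = 0.0046). Both genes were scattered at days 3 and 5, where 1 library of each day stood well above the other 2.

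MRPL46 and MRPS11 encode proteins of different subunits and lie side by side on chromosome 15, at chr15:88459477-88467390 on the minus strand and chr15:88467453-88480776 on the plus strand, so that their starts face away from each other. MRPL46 read 8.62, 5.76 and 5.22 CPM at day 3 and 12.3, 13.1 and 11.2 at day 28 (0.88, SE 0.24, adjusted p = 0.00336). MRPS11 read 13.1, 15.9 and 15.7 CPM at day 3 and 23.7, 25.6 and 27.6 at day 28 (0.79, SE 0.21, adjusted p = 0.00249). Both rose without overlap. Between day 1 and day 3 they differed in call: MRPS11 fell (-1.18, adjusted p = 8.56e-05) and MRPL46 had a log2 change of -0.56 (adjusted p = 0.0707). MRPS36, the dehydrogenase subunit, completed the 5 largest rises (0.63, adjusted p = 0.00655, but 0.23 and 0.220 with length and GC trends removed).

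The 5 largest falls from day 3 to day 28 were those of MRPS24 (-3.08, from a mean of 1.34 CPM), MRPL11 (-1.91), MRPS27 (-1.42), MRPS2 (-1.13) and MRPL9 (-0.96). MRPS27 (chr5:72214953-72321717, minus strand) read 211, 239 and 264 CPM at day 3 and 83.2, 92.6 and 90.8 at day 28 (SE 0.20, adjusted p = 2.02e-06). It was the only gene of the set called between day 3 and day 5, where it dropped to 183, 143 and 130 CPM (-0.65, SE 0.20, adjusted p = 0.0263). That step missed the threshold without day 3 replicate 3 (adjusted p = 0.0878) or day 5 replicate 3 (0.0557). It also missed in a fit restricted to these 2 days (adjusted p = 0.495).

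Few genes were called at single steps after day 3, although libraries of neighbouring days were often apart. Of the 78 genes, 29 (37.2%, against 24.6% of all genes) had both day 10 libraries above day 7 and 10 (12.8%, against 23.5%) below. At day 14, 43 genes (55.1%, against 22.5%) had all libraries below day 10 and 7 (8.97%, against 22.7%) above. From day 14 to day 28 the counts were 18 above (23.1%, against 22.3%) and 21 below (26.9%, against 20.8%). They were 1 above (1.28%, against 10.4%) and 5 below (6.41%, against 9.47%) from day 3 to day 5, and 1 above (1.28%, against 10.7%) and 4 below (5.13%, against 8.46%) from day 5 to day 7. The step from day 3 to day 5 and both steps that involve day 10 moved with GC. The rho of change with GC was 0.639 for day 5 against day 3 (all genes, 0.272). It was -0.49 for day 10 against day 7 (all genes, -0.363) and -0.636 for day 14 against day 10 (all genes, -0.453). For day 7 against day 5 it was -0.194, and for day 28 against day 14 it was -0.006. For day 14 against day 10 the median changes were 0.055, -0.32 and -0.46 from the lowest to the highest GC group.

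By the test the counts were smaller. From day 3 to day 5, 1 gene was lower (background 6.33%) and none higher (0 by edgeR, 7 at an unadjusted p below 0.05, 1 by DESeq2; background 10.3%). Without day 5 replicate 2 these counts became 13 lower and 11 higher, without day 5 replicate 3 they were 0 lower and 1 higher, and without day 5 replicate 1, 2 were lower. From day 5 to day 7, MRPL36 of the large subunit rose alone (background 5.32%), from 26, 13.6 and 18.6 CPM to 34.9, 35.1 and 32.1 (0.81, SE 0.23, adjusted p = 0.0209). Its adjusted p was 0.0523 without day 7 replicate 2 and 0.312 in a fit restricted to these 2 days. None fell (0 by edgeR and by DESeq2, 5 at an unadjusted p below 0.05; background 5.02%), although 4 did without day 5 replicate 2 and 2 without day 5 replicate 3.

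From day 7 to day 10, where day 10 has 2 libraries, 3 genes rose (background 4.17%): MRPS36 (0.88, adjusted p = 0.0101), MRPS23 (0.85, adjusted p = 0.0212) and MRPS33 (0.72, adjusted p = 0.0463). MRPS36 read 20.8, 24.1 and 22.3 CPM at day 7 and 43.3 and 39.4 at day 10. Its level then held, at 40.7 ± 1.38 CPM at day 14 and 39.8 ± 2.57 at day 28. With length and GC trends removed, the rises of MRPS36 (0.50, adjusted p = 0.0611) and MRPS33 (0.36, adjusted p = 0.235) did not pass, and that of MRPS23 did. None fell (0 by edgeR and by DESeq2, 1 at an unadjusted p below 0.05; background 3.50%). Leaving out any 1 library of the 2 days left at most 1 of the 3 rises: the adjusted p lay between 0.0843 and 0.345 for MRPS23 and between 0.103 and 0.577 for MRPS33, and between 0.0610 and 0.199 for MRPS36 except without day 7 replicate 2.

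From day 10 to day 14, MRPS25 rose alone (background 1.64%), from 43.1 and 41.5 CPM to 78, 74.9 and 64.1 (0.77, SE 0.21, adjusted p = 0.034). None fell by edgeR (9 at an unadjusted p below 0.05, 3 by DESeq2; background 2.11%). With each library of the 2 days left out in turn, the adjusted p of MRPS25 lay between 0.0765 and 0.347. The gene overlaps NR2C2, on the opposite strand, in 39.1% of its exon bases.

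From day 14 to day 28, MRPL33 rose (background 7.96%) and MRPS30, MRPL45 and MRPS24 fell (background 7.78%). MRPL33 read 31.4, 44 and 35.8 CPM and then 65.8, 63.0 and 68.8 (0.83, SE 0.19, adjusted p = 0.00349), a rise that passed in every alternative. MRPS30, a large-subunit protein despite its symbol, read 157, 148 and 148 CPM at day 14, its highest day, and 88.2, 89.6 and 95.5 at day 28 (-0.73, SE 0.20, adjusted p = 0.0128). MRPL45, which tethers the ribosome to the inner membrane, went from 44.4 ± 6.82 to 25.8 ± 2.51 CPM (-0.78, adjusted p = 0.0303). Leaving out 1 library gave an adjusted p of 0.0580 to 0.0608 for MRPS30 in 3 cases, without day 14 replicate 1 or day 28 replicate 1 or 2. For MRPL45 it gave 0.0702 to 0.153 in 5, every library but day 14 replicate 1. For MRPS24 (-1.83) it gave 0.0756 to 0.391 in 4, without day 14 replicate 1 or 3 or day 28 replicate 2 or 3. With length and GC trends removed, 14 genes were called higher and 11 lower at this step.

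The level of a single gene ranged widely. Per kilobase of the canonical transcript, the mean level over the 8 days was highest for MRPS34 (105 CPM per kilobase), MRPL51 (103) and MRPS15 (95.7). In CPM, MRPS27 (159), MRPL3 (154) and MRPS16 (122) led, and MRPS24 (0.795), MRPL38 (2.43) and MRPL53 (2.53) were lowest. The 6 lowest in CPM, the others being MRPS28 (4.65), MRPL12 (6.70) and MRPS17 (6.78), each share at least 20% of their exon bases with another protein-coding gene on the same strand that is also in the count table. How the overlap bears on their counts was not tested. MRPL53 shares 72.8% with CCDC142. MRPL33 shares 21.1% with BABAM2. MRPL2 (29.2%) and MRPS5 (23.3%) share exon bases on the same strand with protein-coding genes of GENCODE 44 that have no row in the table. A further 8 genes overlap a gene of the table on the opposite strand by at least 20%, MRPS34 and MRPS25 among them. The counting's strand setting is not given in the sources used here, so those pairs cannot be told apart. Pseudogenes held few reads: 79 pseudogene rows named after these genes summed to 3.97 to 13.5 CPM, or 0.069 to 0.402% of the sum of the 78.

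The 3 paralogues of bacterial S18 are given side by side. MRPS18B peaked at day 1 (128 ± 28.6 CPM), fell at day 3 (53.3 ± 10.6; log2 change -1.26, adjusted p = 0.000136), and stood at 104 ± 2.6 CPM at day 10 and 55.3 ± 6.54 at day 28. MRPS18A, a large-subunit protein, also fell from day 1 to day 3 (35.1 ± 6.72 to 20 ± 6.3 CPM; -0.81, adjusted p = 0.0355). MRPS18C lay between 7.54 ± 0.478 and 12.4 ± 0.936 CPM and was 1 of 6 genes that did not pass the test over all days. Among those 6, the adjusted p was highest for MRPS28 (0.332; day means of 3.9 to 5.42 CPM), MRPL24 (0.206; 18.3 to 31.6 CPM) and MRPS14 (0.150; 24.3 to 34.4 CPM). Differences between the paralogues were not tested.

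The promoters of these genes carried a shared sequence more often than promoters at large. RefSeq windows (GRCh38.p14) from 250 bases before to 50 bases after the start were given for 69 of the 78 genes, 85 windows in all. The motif CCGGAAG, the core bound by ETS family factors, was found on either strand in 38.8% of these windows, against 14.5% of 18271 windows of tested protein-coding genes and 10.3% of 35116 windows overall. The YY1 motif AAGATGGCG was found in 15.3% of windows, against 2.85% and 1.75%. The NRF1 motif GCGCATGC was in 7.06% (4.06% and 3.05%), the E-box CACGTG in 10.6% (8.66% and 7.26%) and CCAAT in 32.9% (34.2% and 34.6%). Both strands were searched, and matches of NRF1 on the 2 strands can overlap each other. The stretches below are the 100 bases before the start, 5′ to 3′ on the gene's strand, with matches of the ETS or NRF1 motif in capitals. They are shown for genes named above that rose or fell, with and without a match.
MRPL40 (chr22:19432445-19432544, plus strand, ETS, higher at day 28): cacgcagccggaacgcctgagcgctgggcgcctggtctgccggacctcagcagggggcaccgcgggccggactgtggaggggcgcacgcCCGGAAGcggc
MRPS10 (chr6:42217862-42217961, minus strand, ETS, higher at day 28 than at day 3): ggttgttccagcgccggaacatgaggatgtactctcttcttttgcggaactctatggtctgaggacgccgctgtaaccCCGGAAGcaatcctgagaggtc
MRPS26 (chr20:3045952-3046051, plus strand, ETS on the other strand, lower at day 28): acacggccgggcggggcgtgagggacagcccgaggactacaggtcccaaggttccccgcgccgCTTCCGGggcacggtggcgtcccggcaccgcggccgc
MRPS18B (chr6:30617740-30617839, plus strand, NRF1 on the other strand, peak at day 1): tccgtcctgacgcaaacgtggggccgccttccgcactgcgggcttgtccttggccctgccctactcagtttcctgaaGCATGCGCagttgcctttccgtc
MRPL1 (chr4:77862730-77862829, plus strand, no match in the stretch, lower from day 1): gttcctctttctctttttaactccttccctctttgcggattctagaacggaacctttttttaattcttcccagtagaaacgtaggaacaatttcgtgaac
MRPL42 (chr12:93467414-93467513, plus strand, no match in the stretch, lower at day 1): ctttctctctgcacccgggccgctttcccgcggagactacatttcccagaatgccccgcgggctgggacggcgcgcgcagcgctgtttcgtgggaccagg

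The changes are given for genes with and without a match, with no test of the difference. Of 30 genes with an ETS match, 19 fell between day 1 and day 3 (median log2 change -0.78), and of 39 without one 24 fell (median -0.735). For day 28 against day 0 the medians were -0.72 with a match and -0.56 without. The 6 genes with an NRF1 match had a median of -0.97 between day 1 and day 3 and -0.37 over the whole course, against -0.725 and -0.675 in the other 63. For the 13 genes with a YY1 match these medians were -0.56 and -0.64, against -0.795 and -0.65 in the other 56. A match is a description of these windows, not a site of binding.

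Other parts of the mitochondrial translation system are described by counts, beside the shares of all genes: 19.0% lower and 18.2% higher for day 3 against day 1, and 28.4% lower and 32.1% higher for day 28 against day 0. Of 5 ribosomal proteins with other names, 4 fell between day 1 and day 3 and 3 were lower at day 28 than at day 0. AURKAIP1 went from 147 ± 35.3 to 58.9 ± 16.0 CPM between day 1 and day 3 (-1.32, adjusted p = 0.000739), GADD45GIP1 from 111 ± 28.9 to 52.2 ± 13.5 (-1.09, adjusted p = 0.00373) and CHCHD1 from 66.4 ± 11 to 35.3 ± 2.46 (-0.91, adjusted p = 0.00295). The other 2 parted at day 1, when PTCD3 fell (-0.92, adjusted p = 0.0359) and DAP3 rose (0.71, adjusted p = 0.0174).

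Among 19 aminoacyl-tRNA synthetases that charge mitochondrial transfer RNA, 10 fell between day 1 and day 3 (median -0.64) and 10 over the whole course (median -0.65). EARS2, which charges the transfer RNA for glutamate, went from 127 ± 9.24 to 32.2 ± 4.37 CPM over the course (-1.98, adjusted p = 6.37e-08). MARS2, the methionine enzyme, went from 46.6 ± 2.37 to 12.9 ± 0.839 CPM (-1.86, adjusted p = 5.06e-08). Of 25 assembly and rRNA modification factors, 9 fell and 1 rose from day 1 to day 3, and 13 fell and 2 rose over the course, led by RPUSD4, a pseudouridine synthase (-1.64, adjusted p = 2.69e-06). The 14 translation factors had a median of 0.02 over the course, with shares of calls below those of all genes: 2 lower, TUFM (-0.83) and TSFM (-0.61), the elongation factor and its exchange factor, and 1 higher, the initiation factor MTIF3 (0.66).

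Of the machinery that transcribes the mitochondrial genome, 3 of 5 genes were lower at day 28: TFAM (132 ± 15.5 to 54.5 ± 10.3 CPM; -1.28, adjusted p = 0.00288), TFB2M (-0.98) and the polymerase POLRMT (-0.96). Over the same interval 10 of 13 mitochondrially encoded messenger RNAs rose, with a median of 1.28. Of 11 nuclear regulators of mitochondrial or ribosomal genes, 2 rose over the course, a smaller share than among all genes, PPARGC1A from 2.22 ± 0.459 to 157 ± 17.1 CPM (6.13, adjusted p = 2.82e-11) and ESRRG from 1.91 ± 0.347 to 62.9 ± 5.55 CPM (5.03, adjusted p = 4.29e-12). MYC was among the 6 that fell, from 95.7 ± 6.14 to 5.15 ± 1.57 CPM (-4.21, adjusted p = 3.74e-10). Between day 1 and day 3, 5 of the 11 regulators fell and 2 rose. MYC fell from 56.2 ± 12.4 to 9 ± 2.87 CPM (-2.64, adjusted p = 1.39e-06). Its paralogue MYCN rose from 14.3 ± 2.58 to 86.4 ± 21.0 CPM (2.60, adjusted p = 5.39e-08).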

How the data were processed

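The deposited table holds whole-number counts of reads per gene and library, not normalized, as read from its values. Trim Galore 0.65 (to a length of 50 bases), STAR 2.7.0 with GRCh38, and HTSeq made it, per the submitters' processing notes; the design text names GENCODE 38. The strand setting is not given in the sources used here. Identifiers were matched without version to GENCODE 44, which lacks 1090 of them; 44 second copies of pseudoautosomal genes were left out.

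CPM was computed on TMM effective library sizes. Genes passing filterByExpr (minimum count 10) were tested with edgeR 4.0.16 in R 4.3.3 (robust quasi-likelihood F-test, day as factor). Every adjusted p is from edgeR unless DESeq2 1.42.0 is named. The fit was tested on simulated counts. Alternatives were other scalings and filters, DESeq2, a replicate block, loess trends of length and GC of the canonical transcript removed, only the 2 days compared, and each library left out.

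Values in full are given for up to 5 called rises and 5 called falls per comparison, the 5 highest and 5 lowest changes of the whole course, the 3 most and 3 least abundant genes, the S18 paralogues, the 3 genes with the highest p over all days, and up to 3 called genes per other list, of which some are printed. MRPL46 and MRPS11 being neighbours was noticed after their values were seen. The genes and lists were chosen with earlier results of these data known. Mitochondrial rRNA is not analysed here.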

Additional observations from a re-analysis of the deposited data

How the results depend on the processing

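Counts are genes called higher and lower. Of 44 named results, 24 passed in every alternative run. Day 1 against day 0 gave 3 lower with mitochondrially encoded genes left out, 7 higher with no filter, 8 lower by DESeq2, and 20 and 10 with only the 2 days. Day 3 against day 1 gave 30 lower with library totals or only the 2 days. Day 5 against day 3 gave 2 lower with upper-quartile factors, 1 higher at a minimum count of 50, 1 and 3 by DESeq2, 4 and 2 with length and GC trends removed, 5 and 2 with those and the replicate block, and 0 lower with only the 2 days. Day 7 against day 5 gave 8 lower with trends removed (8 with the block) and 0 higher with only the 2 days. Day 10 against day 7 gave 1 higher with library totals, 0 with no filter, 9 by DESeq2, 9 with trends removed (10 with the block), and 12 and 2 with only the 2 days. Day 14 against day 10 gave 1 lower with mitochondrially encoded genes left out, with a minimum count of 50 or with the replicate block, 0 higher with no filter, 2 and 3 by DESeq2, 4 and 6 with trends removed (3 and 7 with the block), and 3 and 4 with only the 2 days. Day 28 against day 14 gave 6 lower with upper-quartile factors, 9 lower with library totals, 2 higher with mitochondrially encoded genes left out, 3 and 0 with no filter, 2 and 5 at a minimum count of 50 or by DESeq2, 14 and 11 with trends removed (15 and 10 with the block), and 12 and 15 with only the 2 days. Day 28 against day 0 gave 2 higher with upper-quartile factors, library totals or no filter. Day 28 against day 3 gave 5 higher with upper-quartile factors, 4 and 27 with library totals, 4 higher with no filter, 14 by DESeq2, and 18 with trends removed (18 with the block). MRPS36 at day 28 against day 0 reversed, to -0.020 with trends removed and -0.019 with the block added.

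With 1 library left out, the counts were 4 to 29 higher and 2 to 9 lower for day 1 against day 0, 0 to 1 and 29 to 43 for day 3 against day 1, 0 to 11 and 0 to 13 for day 5 against day 3, 0 to 1 and 0 to 4 for day 7 against day 5, 0 to 1 and 0 to 0 for day 10 against day 7, 0 to 0 and 0 to 0 for day 14 against day 10, 1 to 1 and 0 to 2 for day 28 against day 14, 1 to 4 and 30 to 34 for day 28 against day 0, 7 to 9 and 11 to 16 for day 28 against day 3, and 68 to 76 over all days. Where day 10 was left with 1 library, that library was assumed to vary like the other days.

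Same-numbered libraries of different days correlated between -0.368 and 0.532 in their deviations (median 0.004). Of the same-number pairs 15 of 77 were over 0.1, and of the different-number pairs 19 of 154, so the numbers were not treated as pairs. As a hint from the data, 12 of 23 libraries correlated best with their own number. The replicate block alone changed the counts in no comparison by over 1.5 times other than day 14 against day 10. Library totals moved the median of all genes by 0.23 for day 3 against day 1 and by -0.119 for day 28 against day 0, where the median of the 78 was -0.73. Depth limits the least abundant genes most: MRPS24 had as few as 1 count in a library.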
